A study of Homo sapiens with 2 samples.

Results

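The complement genes described here are 34 genes for plasma and membrane proteins of the complement system, taken by name from the 19927 gene rows of the count table, and all 34 were found. They were measured by mRNA sequencing in Huh7, an established human hepatocellular carcinoma cell line. The culture titled shPPIL1#1, called shPPIL1 here, carried a short hairpin RNA against PPIL1, a cyclophilin of the spliceosome, and has the genotype label PPIL1 knockdown. The culture titled shControl carried a control hairpin and has the genotype label WT. Each group is 1 library of 1 culture grown in DMEM with serum, from 1 hairpin, so no replicate spread could be measured, no test was made and no p-value is given.

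Complement is a cascade of plasma proteases, most of them made by hepatocytes, that marks microbes and dying cells. The classical pathway starts with C1, whose protease C1R activates C1S, which cleaves C4 and C2. The lectin pathway reaches the same step through mannose-binding lectin or collectins and the MASP proteases, and the alternative pathway amplifies C3 cleavage through factors B and D. All converge on C3 and C5 and on the membrane attack complex of C5 to C9, while soluble and membrane regulators hold the cascade in check. Complement genes of liver cells are known to respond to interleukin-6, interferon-gamma and other cytokines of the acute phase.

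The shPPIL1 library held 41165401 counted reads and the shControl library 41015345. PPIL1 had 104 reads in shPPIL1 and 1505 in shControl, a ratio of 0.0679, which is the direction of the labels. Each ratio is shPPIL1 over shControl after scaling for library size and composition, with an exact 95% interval that covers counting error only. Genes under 1 CPM (counts scaled to a common library size) in both libraries were set aside. The 12540 genes kept had a median log2 ratio of 0.00. A gene was called higher or lower when its ratio passed 1.2-fold and the interval excluded 1. All 8 hepatocyte markers were kept, with ALB at 3270 FPKM in shPPIL1 and 3203 FPKM in shControl, and 0 of them were called. With no limit on fold, 6 of the 8 were higher with an interval excluding 1 (75%, against 24.6% of all genes kept). Another 1 was lower (12.5%, against 26.4%), and the median log2 ratio of the 8 was 0.09. High counts narrow these intervals, and that of ALB excluded 1 at a ratio of 1.007 (1.002 to 1.012). The macrophage markers VSIG4 and CD163 had 0 reads in both libraries. The summed level of the 8 macrophage markers was 20.5 FPKM in shPPIL1 and 21.8 FPKM in shControl. Most of that sum came from CD68 alone, with 18.2 FPKM in shPPIL1 and 19.5 FPKM in shControl. In that list MARCO, a scavenger receptor, was called lower, with 20 reads in shPPIL1 and 51 in shControl. MARCO was kept through shControl alone (0.482 CPM in shPPIL1 and 1.25 CPM in shControl), which favours a ratio below 1. The 6 fibroblast or stellate markers summed to 16.1 FPKM in shPPIL1 and 16.0 FPKM in shControl, almost all of it from LUM and COL1A1, with COL1A2 at 0 reads in both. The 5 endothelial markers summed to 1.36 FPKM in shPPIL1 and 1.58 FPKM in shControl, with KDR at 0 reads in both. What part these markers have in the complement values was not tested, and in bulk RNA fewer cells of a type and less RNA per cell cannot be told apart.

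Of the 34 complement genes, 24 were kept. Among these, 7 were called higher, or 29.2%, against 8.32% of all genes kept, and 2 were called lower, or 8.33%, against 9.52% of all genes kept. The higher genes were C1S, C1R, CFB, C4BPB, C6, C8B and C1RL, and the lower genes were the lectin pathway genes MBL2 and MASP1. With no limit on fold, 14 of the 24 were higher with an interval excluding 1 (58.3%, against 24.6% of all genes kept) and 4 were lower (16.7%, against 26.4%). Whether an interval excludes 1 depends on depth, and the 14 include the high-count genes VTN, C3 and CLU at ratios of 1.03 to 1.08. The share higher by this measure was 75% for the hepatocyte markers, so it is not particular to complement genes. At 1.5-fold, 2 were higher (background 2.02%) and 0 were lower (background 2.22%). At 2-fold, 0 were higher (background 0.526%) and 0 were lower (background 0.518%). The median log2 ratio of the 24 genes was 0.10, with a range of -0.47 to 0.73.

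**Figure D1:**
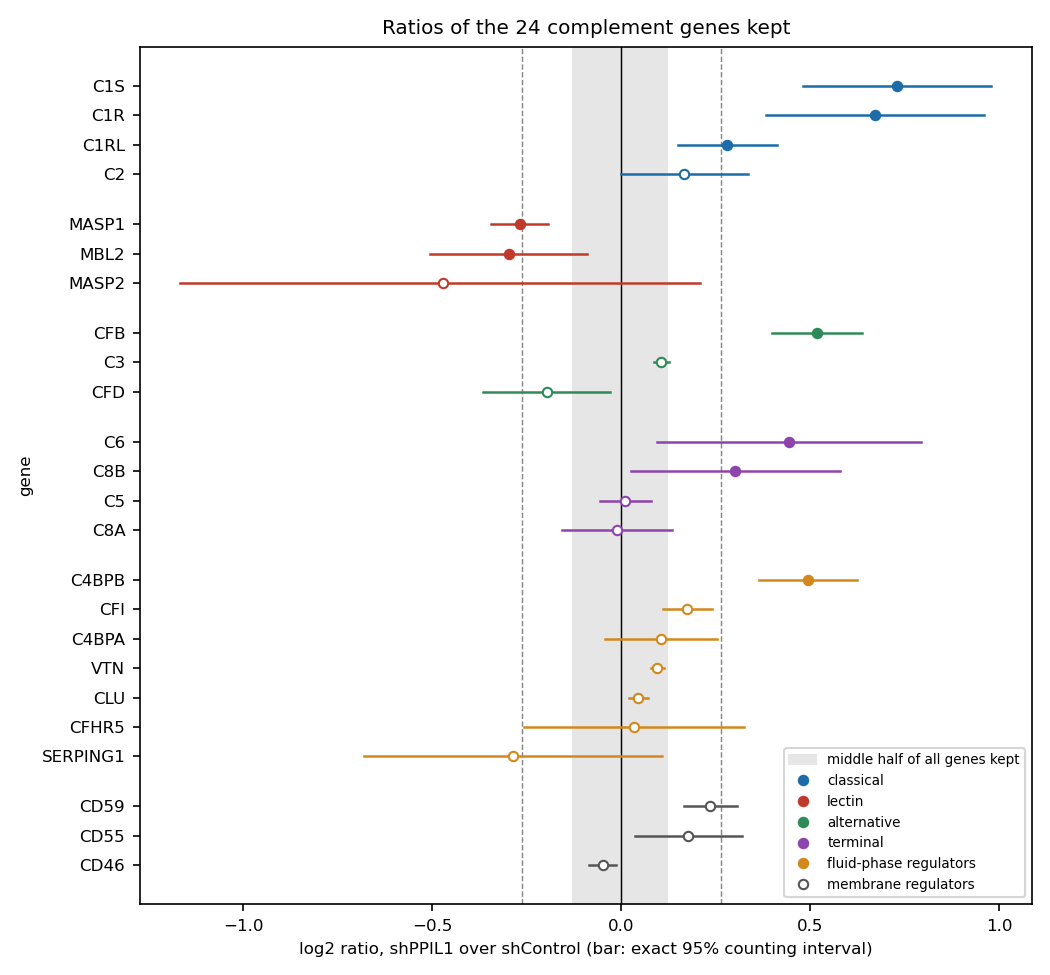
Log2 ratio of shPPIL1 over shControl for the 24 complement genes kept, grouped by pathway, with exact 95% counting intervals as bars. Filled points are called, dashed lines mark 1.2-fold, and the grey band spans the quartiles of all genes kept (-0.13 to 0.12). C1S and C1R lie farthest to the right, at 0.73 and 0.67, and the 3 lectin genes all lie to the left of 0.

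Levels spanned a wide range, and few genes made up most of the sum. On the FPKM scale, which corrects for gene length, VTN, the gene of vitronectin, stood at 822 in shPPIL1 and 759 in shControl. CLU, which encodes clusterin, followed with 213 FPKM in shPPIL1 and 204 in shControl. C3, the central component, had 178 FPKM in shPPIL1 and 163 in shControl. These 3 genes took 79.6% of the summed FPKM of all 34 genes in shPPIL1 and 79.4% in shControl, and CD46 was the only other gene above 100 FPKM in both libraries. At the other end, 10 genes lay below 1 FPKM in both libraries. The 34 genes together took 0.373% of counted reads in shPPIL1 and 0.348% in shControl, a ratio of 1.06 (1.05 to 1.07) for the summed reads.

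**Figure D2:**
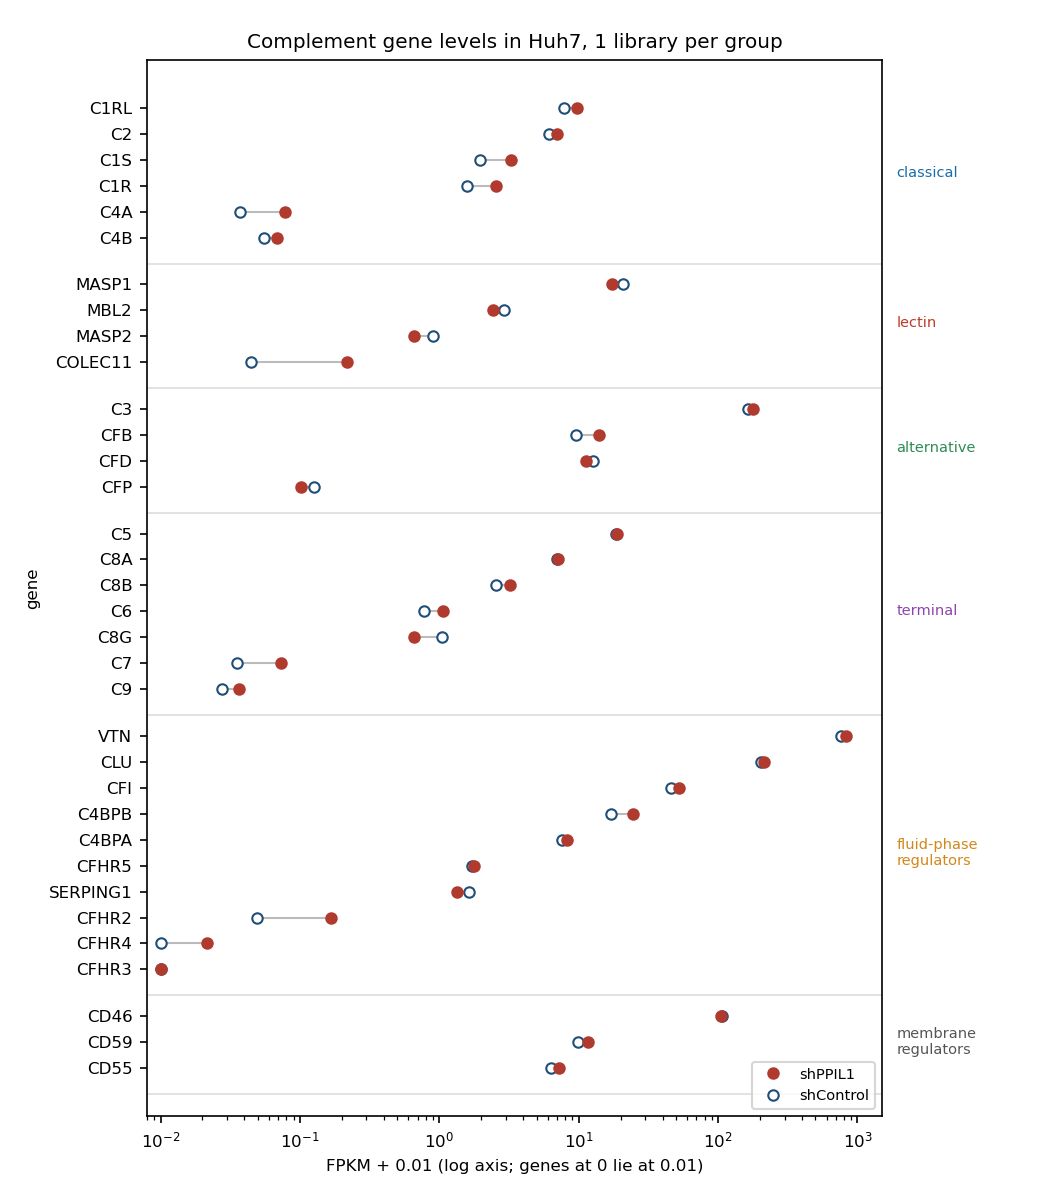
FPKM of the 34 complement genes in shPPIL1 (filled red) and shControl (open blue), on a log axis after adding 0.01, grouped by pathway and ordered by level within each group. VTN, CLU, C3 and CD46 lie above 100 FPKM in both libraries, and the widest gaps belong to genes with few reads, such as COLEC11 with 12 reads in shPPIL1 and 2 in shControl.

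In the classical pathway, the C1 proteases stood highest in ratio. C1S, the protease of C1 that cleaves C4 and C2, had 361 reads in shPPIL1 and 214 in shControl, or 3.28 FPKM in shPPIL1 and 1.95 FPKM in shControl. Its ratio was 1.66 (1.40 to 1.97), the highest of the 24 genes kept. C1R, which activates C1S, had 264 reads in shPPIL1 and 163 in shControl, a ratio of 1.59 (1.30 to 1.95). The ratios of these partners could not be told apart: that of C1S divided by that of C1R was 1.04 (0.797 to 1.36). C1S and C1R lie end to end on chromosome 12, C1S at 7060718 to 7071032 and C1R at 7080219 to 7092445 (GRCh38.p14), with 9186 bases between them. C1RL, a C1R-like protease gene, lies at 7094554 to 7109214, with 2108 bases between C1R and C1RL. C1RL was expressed at a higher level than C1S and C1R, with 9.67 FPKM in shPPIL1 and 7.85 FPKM in shControl. Its ratio was 1.21 (1.11 to 1.33). The ratio of C1R was higher than that of its neighbour C1RL, by 1.31-fold (1.05 to 1.64). In GENCODE release 29, 47 of the 225 windows of 100 bases along the longest coding C1R transcript also stand in a transcript of the overlapping C1RL annotation, and how the authors assigned reads from such exons is not stated.

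Promoter windows of C1R and C1RL are printed because both genes were called higher and both windows hold a STAT-type match. They are RefSeq sequences on GRCh38.p14, minus strand, from 250 bases before to 50 after an annotated start, and C1R has another annotated start with no such match. Capitals mark matches to TTCNNNGAA (STAT) and TTGCNNAA (C/EBP) on either strand.
C1R chr12:7091844-7092143: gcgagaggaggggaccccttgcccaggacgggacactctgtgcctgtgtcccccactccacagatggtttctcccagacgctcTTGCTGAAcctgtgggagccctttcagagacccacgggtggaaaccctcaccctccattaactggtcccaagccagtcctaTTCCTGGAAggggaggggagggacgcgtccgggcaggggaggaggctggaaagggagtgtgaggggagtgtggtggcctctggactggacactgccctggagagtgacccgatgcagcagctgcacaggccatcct
C1RL chr12:7109165-7109464: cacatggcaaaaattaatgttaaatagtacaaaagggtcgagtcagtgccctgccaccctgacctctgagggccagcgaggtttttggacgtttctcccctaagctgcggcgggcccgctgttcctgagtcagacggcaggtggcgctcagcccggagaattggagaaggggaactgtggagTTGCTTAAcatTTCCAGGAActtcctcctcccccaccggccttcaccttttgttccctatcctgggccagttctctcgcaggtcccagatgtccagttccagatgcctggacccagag

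The substrates of C1S differed in level. C2, the protease subunit of the classical C3 convertase, had 632 reads in shPPIL1 and 553 in shControl, a ratio of 1.12 (1.00 to 1.26) that stayed under the fold limit. C4A and C4B, the duplicated genes of the other subunit, had few counted reads. C4A had 15 reads in shPPIL1 and 6 in shControl, and C4B had 13 reads in shPPIL1 and 10 in shControl. Their coding sequences differ at 13 of 5235 bases, and 87.9% of the 100-base windows of C4A stand unchanged in C4B, so the split between them need not measure separate genes. Summed, they had 28 reads in shPPIL1 and 16 in shControl, a ratio of 1.72 (0.899 to 3.40). Reads that match both copies may have been left out of the counts, so these numbers set no upper limit on C4 mRNA.

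The lectin pathway was the only group whose kept genes all had ratios below 1. MASP1, the gene of a lectin-associated protease and its splice forms, had 2654 reads in shPPIL1 and 3142 in shControl, or 17.5 FPKM in shPPIL1 and 20.7 FPKM in shControl. The ratio of MASP1 was 0.830 (0.788 to 0.874), just past the limit of 1.2-fold, and it was not called when plain library totals were used. MBL2, mannose-binding lectin, had 351 reads in shPPIL1 and 424 in shControl, a ratio of 0.813 (0.704 to 0.939). The ratios of the protease gene and the lectin gene could not be told apart, with that of MASP1 over that of MBL2 at 1.02 (0.875 to 1.19). MASP2, the protease that cleaves C4 and C2, had 33 reads in shPPIL1 and 45 in shControl, and its ratio of 0.720 had an interval that includes 1 (0.445 to 1.15). MASP2 was kept through shControl alone, which favours a ratio below 1. COLEC11, a collectin, lay below the filter with 12 reads in shPPIL1 and 2 in shControl, a ratio of 5.89 (1.31 to 54.2), the opposite direction at very low counts.

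The promoter window of MBL2 is printed to set beside those of the higher genes, since a lower gene holds a match to the same STAT letters. It lies on the minus strand, and capitals mark the same motifs as above. MBL2 has another annotated start whose window holds no such match.
MBL2 chr10:52772735-52773034: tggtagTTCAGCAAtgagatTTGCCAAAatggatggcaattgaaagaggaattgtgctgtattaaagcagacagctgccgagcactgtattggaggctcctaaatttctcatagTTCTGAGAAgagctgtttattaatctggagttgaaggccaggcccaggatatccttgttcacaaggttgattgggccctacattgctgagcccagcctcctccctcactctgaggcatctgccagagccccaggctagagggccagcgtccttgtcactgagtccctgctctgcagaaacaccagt

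In the alternative pathway, the gene of factor B was called higher and the other genes were not. CFB, the protease subunit of the alternative C3 convertase, had 1417 reads in shPPIL1 and 972 in shControl, or 13.9 FPKM in shPPIL1 and 9.57 FPKM in shControl. The ratio of CFB was 1.43 (1.32 to 1.56). C3 had 38427 reads in shPPIL1 and 35073 in shControl, a ratio of 1.08 (1.06 to 1.09), below the fold limit. The ratio of C3 was 0.752 times that of CFB (0.691 to 0.817). CFD, factor D, which cleaves factor B, had 554 reads in shPPIL1 and 624 in shControl, a ratio of 0.872 (0.777 to 0.980). CFP, properdin, which stabilises the convertase, lay below the filter with 8 reads in shPPIL1 and 10 in shControl. CFB lies on chromosome 6 at 31946095 to 31952084, beginning 422 bases beyond the end of C2 (31897783 to 31945672), its counterpart of the classical pathway. The ratio of CFB exceeded that of C2 by 1.28-fold (1.11 to 1.47). GENCODE release 29 also lists a readthrough gene over both, in whose transcripts 215 of 277 CFB windows and 151 of 276 C2 windows recur, and how reads from these exons were assigned is not stated.

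The promoter window of CFB is printed because CFB had the largest ratio of the 24 genes kept after C1S and C1R and was the only matched gene of the 34 with an ISRE-type match. It lies on the plus strand, and capitals mark the ISRE-type motif (GAAA, any 2 bases, GAAA, here on the opposite strand) and TTCNNNGAA.
CFB chr6:31945845-31946144: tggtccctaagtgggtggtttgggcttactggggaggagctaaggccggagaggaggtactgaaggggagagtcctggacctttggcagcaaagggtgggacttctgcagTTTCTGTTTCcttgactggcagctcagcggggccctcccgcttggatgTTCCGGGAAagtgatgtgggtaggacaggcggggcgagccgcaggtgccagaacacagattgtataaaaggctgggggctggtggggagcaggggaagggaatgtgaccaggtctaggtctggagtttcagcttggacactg

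Among the terminal components, C6 and C8B were called higher and C5 and C8A were not. C5, which starts the membrane attack complex, had 3620 reads in shPPIL1 and 3530 in shControl, a ratio of 1.01 (0.962 to 1.06). C6, which binds C5b, had 166 reads in shPPIL1 and 120 in shControl, a ratio of 1.36 (1.07 to 1.73). C8A, the alpha chain of C8, had 775 reads in shPPIL1 and 767 in shControl, a ratio of 0.993 (0.897 to 1.10). Its neighbour C8B, the beta chain, had 247 reads in shPPIL1 and 197 in shControl, a ratio of 1.23 (1.02 to 1.49). The ratio of C8B over that of C8A was 1.24 with an interval that includes 1 (0.998 to 1.54), so a difference between the chains was not shown at this depth. C8G, the gamma chain, lay below the filter with 20 reads in shPPIL1 and 32 in shControl. C7 had 15 reads in shPPIL1 and 6 in shControl, and C9, which forms the pore, had 3 reads in shPPIL1 and 2 in shControl.

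Among the soluble regulators, C4BPB stood apart in size. C4BPB, the beta chain of C4b-binding protein, had 1184 reads in shPPIL1 and 826 in shControl, or 24.5 FPKM in shPPIL1 and 17.2 FPKM in shControl. The ratio of C4BPB was 1.41 (1.29 to 1.54). C4BPA, the alpha chain that binds C4b, had 782 reads in shPPIL1 and 715 in shControl, a ratio of 1.07 (0.970 to 1.19). These neighbours on chromosome 1, with 4239 bases between them, differed in ratio by 1.31-fold (1.14 to 1.503). By FPKM the beta chain stood 2.98-fold above the alpha chain in shPPIL1 and 2.27-fold above it in shControl. CFI, the protease factor I that inactivates C3b and C4b, had 4175 reads in shPPIL1 and 3634 in shControl, a ratio of 1.13 (1.08 to 1.18). SERPING1, the C1 inhibitor, had 101 reads in shPPIL1 and 121 in shControl, a ratio of 0.820 whose interval includes 1 (0.623 to 1.08). VTN and CLU, whose proteins bind terminal complexes in plasma, had ratios of 1.07 (1.06 to 1.08) and 1.03 (1.01 to 1.05). Their high counts make these intervals narrow, and neither reached 1.2-fold.

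The promoter window of C4BPB at the start nearest to C4BPA is printed because the gene was called higher and its neighbour was not. It lies on the plus strand, and capitals mark TTCNNNGAA. Another annotated start of C4BPB has a window with no such match.
C4BPB chr1:207089033-207089332: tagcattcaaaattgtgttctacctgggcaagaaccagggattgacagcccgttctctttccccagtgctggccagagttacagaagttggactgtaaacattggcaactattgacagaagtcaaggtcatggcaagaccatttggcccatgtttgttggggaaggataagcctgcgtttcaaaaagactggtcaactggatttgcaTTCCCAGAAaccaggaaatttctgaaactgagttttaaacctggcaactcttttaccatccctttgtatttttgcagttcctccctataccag

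Of the 4 CFHR genes, whose plasma proteins bind fragments of C3, CFHR5 alone was kept. It had 202 reads in shPPIL1 and 194 in shControl, a ratio of 1.02 (0.836 to 1.25). CFHR2 had 8 reads in shPPIL1 and 2 in shControl, and CFHR4 had 1 read in shPPIL1 and 0 in shControl. CFHR3 had 0 reads in both, which allows up to 0.0724 CPM in shPPIL1 and 0.0737 CPM in shControl. Exact 100-base matches to a gene elsewhere covered 4.88% of the windows of CFHR2, 3.23% of CFHR3, 2.54% of CFHR4 and 0% of CFHR5. Summed, these 4 genes had 211 reads in shPPIL1 and 196 in shControl, a ratio of 1.06 (0.867 to 1.29).

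The 3 membrane regulators, which protect the cells that carry them, stayed within 1.2-fold. CD59, which blocks pore assembly, had 3701 reads in shPPIL1 and 3088 in shControl, a ratio of 1.18 (1.12 to 1.24). CD55, which speeds the decay of convertases, had 868 reads in shPPIL1 and 754 in shControl, a ratio of 1.13 (1.02 to 1.25). CD46, a cofactor of factor I, was the most abundant, with 105 FPKM in shPPIL1 and 107 FPKM in shControl, and a ratio of 0.966 (0.942 to 0.991). CD46 differed from both other regulators: the ratio of CD59 exceeded it by 1.22-fold (1.15 to 1.29) and that of CD55 by 1.17-fold (1.06 to 1.30).

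**Figure D3:**
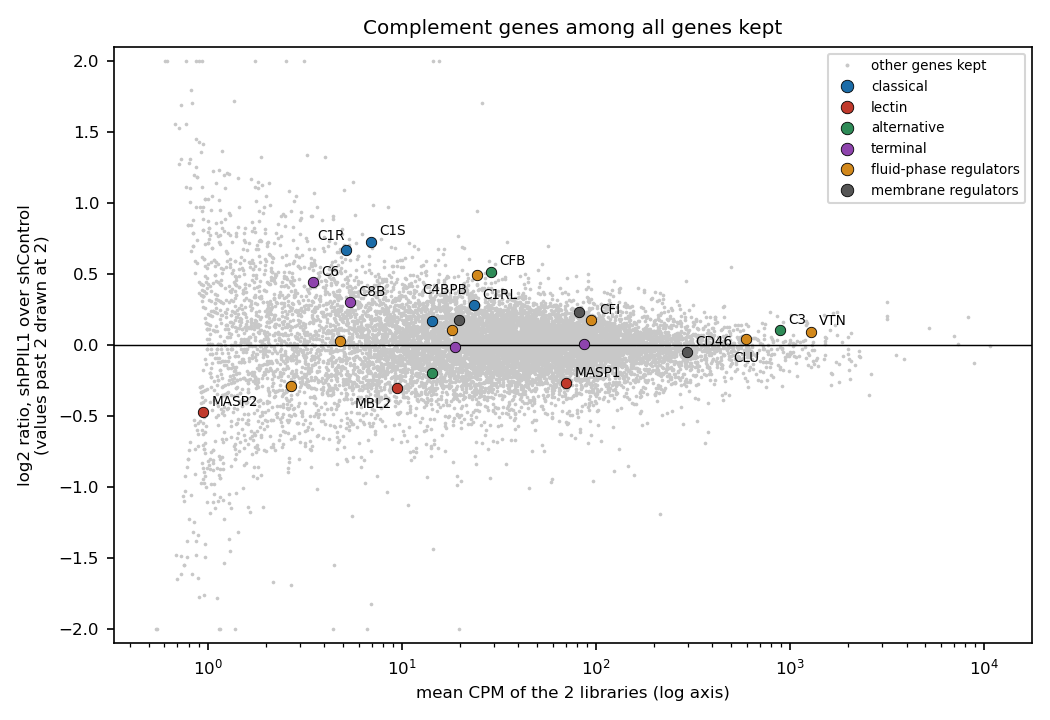
Log2 ratio of shPPIL1 over shControl against the mean CPM of both libraries (log axis) for the 12540 genes kept, in grey, with the 24 complement genes coloured by pathway and values past 2 drawn at 2. C1R, C1S, C6 and C8B lie at low counts where all genes scatter more widely, whereas CFB and C4BPB lie at higher counts with ratios of 1.43 and 1.41.

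The remaining genes of the pathway were mostly not expressed. Of 24 further complement genes (recognition molecules, receptors, carboxypeptidases and cofactors), 14 had 0 reads in both libraries, among them the C1q chain genes C1QA, C1QB and C1QC and the receptor genes CR1 and C3AR1. Of the 4 that were kept, 0 passed 1.2-fold, and their median log2 ratio was -0.10. C1QBP, the gene of a mitochondrial protein that also binds C1q, had 6007 reads in shPPIL1 and 6993 in shControl, a ratio of 0.844 (0.815 to 0.874). CPN1, the catalytic subunit of the carboxypeptidase that trims C3a and C5a, had a ratio of 0.888 (0.808 to 0.976). C5AR1, the receptor of C5a, lay below the filter with 32 reads in shPPIL1 and 9 in shControl, a ratio of 3.49 (1.63 to 8.32).

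Transcription factors and receptors known to act on complement genes in hepatocytes stayed within 1.2-fold. Of 14 such genes, all of them kept, 0 were called. With no limit on fold, 8 were higher with an interval excluding 1 (57.1%, against 24.6% of all genes kept) and 2 were lower (14.3%, against 26.4%), with a median log2 ratio of 0.09. IRF1, the interferon-induced factor, had 4955 reads in shPPIL1 and 4129 in shControl, a ratio of 1.18 (1.13 to 1.23). STAT3, which carries the interleukin-6 signal, had 12842 reads in shPPIL1 and 10984 in shControl, a ratio of 1.15 (1.12 to 1.18). IL6R, the interleukin-6 receptor, had a ratio of 1.16 (1.07 to 1.25), and IL6ST, its signalling partner, a ratio of 0.895 (0.864 to 0.927). CEBPB, an acute-phase factor, had a ratio of 0.890 (0.844 to 0.938). The related genes CEBPD and CEBPA had ratios of 1.14 (1.10 to 1.18) and 1.09 (1.07 to 1.11). These are mRNA levels, and factor activity was not measured.

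**Figure D4:**
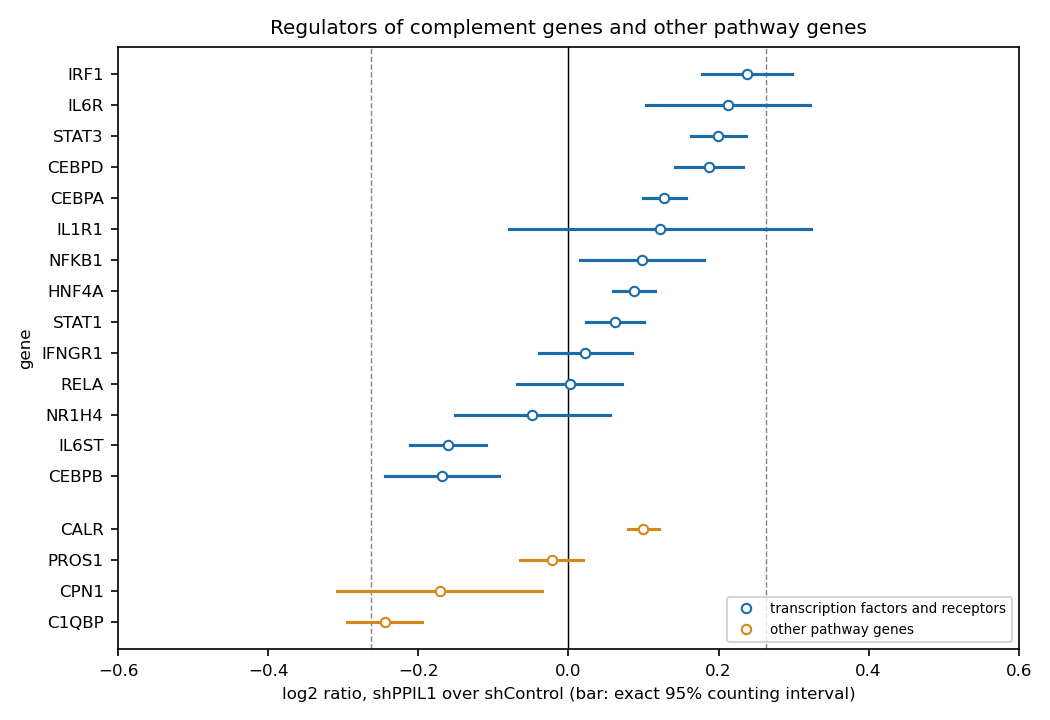
Log2 ratio of shPPIL1 over shControl for 14 transcription factors and receptors (blue) and the 4 further complement genes kept (orange), with exact 95% counting intervals. Dashed lines mark 1.2-fold. All points lie within them, with IRF1 at the right end at 0.24 and C1QBP at the left end at -0.24.

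RefSeq promoter windows were matched for 23 of the 34 genes. C1S, which had the highest ratio, was among those without a window, as were C3, CLU and SERPING1. At least 1 window held TTCNNNGAA in 9 of these 23 genes (39.1%), against 9.38% of all 27305 genes in the table. The 9 were C1R, C1RL, C4BPB, CFB, C7, CD59, MASP2, MBL2 and VTN. Of the 7 genes called higher, 6 had a window and 4 of those held the motif, but so did the lower gene MBL2 and VTN, whose ratio was 1.07. TTGCNNAA stood in 7 of the 23 genes (30.4%, against 12.7%), the ISRE-type motif in CFB alone (4.35%, against 4.38%), and the NF-kB-type motif (GGGA, any base, TTTCC) in 0, against 0.677%. Both strands were searched, and genes with several annotated starts had several windows and so more chances of a match. A match describes letters in the window only.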

How the data were processed

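Messenger RNA of 1 shPPIL1 and 1 shControl library of Huh7 cells was measured. Per the labels' protocols, RNA was selected with polyT, fragmented and amplified by PCR. The authors deposited raw counts per gene for 19927 rows, and FPKM values per gene and library, with genome build hg38 per the submitters' processing notes. Aligner, counter, annotation and strand setting: not given in the sources used here. For 99.9% of genes with reads in shControl, count, total and FPKM gave a whole-number gene length (tolerance 0.001 bases). Another 7 columns of counts match no label and were not used.

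Library totals were multiplied by composition factors (TMM, edgeR 4.0.16, R 4.3.3), 1.01 for shPPIL1 and 0.993 for shControl, and genes at 1 CPM or more in at least 1 library were kept. Ratios carry exact (Clopper-Pearson) 95% intervals from SciPy 1.17.1, and a ratio of 2 ratios carries the exact conditional interval. At 100 reads in each library the interval reaches 1.33-fold and at 1000 reads 1.09-fold. PCR copies are counted without molecular identifiers, so intervals and the floor of 3 reads cover counting error only. The steps were checked on simulated libraries.

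Every one of the 34 genes is given, PPIL1 once as a check, and further genes by lists, from which 1 planned gene and 1 planned motif are not reported here. The members and lists were chosen with earlier results of these data known. Symbols were matched to RefSeq (GRCh38.p14), 34 of 34, and windows of 100 bases every 10 bases were taken from the longest coding transcript in GENCODE release 29. DESeq2 1.42.0 gave the alternative size factors.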

Additional observations from a re-analysis of the deposited data

How the results depend on the processing

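With 1 library per group, no replicate could be left out. No paired analysis was possible because each group holds 1 library. The counts of 7 higher and 2 lower genes were the same with DESeq2 size factors, without C4A, C4B and the CFHR genes, and with these genes summed. A stricter filter of 5 CPM gave 6 and 2, and no filter gave 8 and 2. With library totals the higher count was 7 and the lower count 1, since MASP1 lies at the fold limit. With log2(FPKM + 1) and no interval the counts were 5 and 0, a scale that understates low genes and leaves out the composition factors. On it MASP1, which is not a low gene, lay at -0.24, near its log2 ratio of -0.25 with library totals. At 1.5-fold they were 2 and 0, at 2-fold 0 and 0, and with no limit on fold 14 and 4. The 6-base motif GATCAT, found in an earlier search of these data, stood in the 3' UTR or coding sequence of 10 of the 24 genes. Its share among all genes kept was not counted. The 10 genes with it held 3 higher (C1S, C1R and C6) and 1 lower (MASP1), with a median log2 ratio of 0.08. The 14 genes without it held 4 higher and 1 lower, with a median log2 ratio of 0.14. What part the motif has in the values was not tested. The median log2 ratio of the 24 genes was 0.10 and ran to 0.13 over the alternatives that keep all 24. It was 0.14 for the 20 genes at 5 CPM or more and 0.17 for the 33 genes with a read. Of the pathway medians, 1 moved by more than the counting intervals of its genes: that of the alternative pathway was -0.045 with no filter, where CFP enters with few reads. The terminal median was 0.16, against 0.01 at 5 CPM or more, where C6 drops out, and 0.30 with no filter. The lectin median was -0.30, against -0.28 both at 5 CPM or more, where MASP2 drops out, and with no filter.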
